A study of Mus musculus with 14 samples.

Results

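The 41 genes described here encode proteins that license replication origins, unwind and copy DNA, supply deoxynucleotides or rebuild chromatin behind the replication fork, together with cyclin E and E2F1. They were chosen by name as a set of DNA replication and S phase genes, and all 41 were found among the 31274 gene symbols of the table. The set holds Orc1, Cdc6, Cdt1 and Mcm2 to Mcm7 for origin licensing. Mcm10, Cdc45 and Gins1 to Gins4 act in helicase activation. The polymerases and primase are represented by Pola1, Pola2, Prim1, Prim2, Pold1 and Pole. Pcna and Rfc2 to Rfc5 are the sliding clamp and its loader, and Rpa1 and Rpa2 bind single-stranded DNA. Rrm1, Rrm2, Tyms and Tk1 make deoxynucleotides, Fen1 and Lig1 finish Okazaki fragments, and Ccne1, Ccne2 and E2f1 act at the entry into S phase. Chaf1a, Chaf1b, Uhrf1 and Dnmt1 restore nucleosomes and DNA methylation.

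Gene expression was measured by RNA sequencing of whole uterus from FVB/N mice at 2 months of age, intact and not exposed to any agent. The 14 libraries came from wild-type (WT) mice at diestrus (4 libraries) or estrus (3), and from mice labelled HIF2A cKO, a conditional knockout of Epas1, the gene of the hypoxia-inducible transcription factor HIF2A, at diestrus (4) or estrus (3). Replicates are numbered 1 to 4 at diestrus and 1, 2 and 4 at estrus. The labels name neither the Cre line nor the deleted exons, and they do not say that the libraries came from separate animals. The p-values therefore set group differences against the spread between libraries, and that spread may be technical.

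In G1 the origin recognition complex, Cdc6 and Cdt1 load the MCM helicase, a ring of 6 different subunits, onto DNA. Cyclin E with its kinase and the E2F factors then drive entry into S phase, when Cdc45 and GINS join the MCM ring and the polymerases start. Transcripts of these genes rise in dividing cells and are low in resting cells. In the rodent uterus, estrogen is known for driving division of the luminal epithelium, and progesterone for shifting division towards the stroma.

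E2F factors bind sites of the kind TTTCCCGC, TTTGGCGC, TTTCGCGC and TTTGCCGC, and promoters of replication genes are a textbook example of E2F targets. RefSeq promoters on GRCm38.p6, from 250 bases before to 50 after each start, matched 33 of the 41 genes by symbol. The others were Ccne2, Gins1, Gins2, Gins4, Mcm4, Pole, Prim2 and Rfc2. Searched on both strands, where these 8-base motifs can overlap each other, at least 1 E2F-type motif was present in 14 of the 33 genes (42.4%). A gene counted if any of its windows held a match. The share was 4.50% of the 10202 expressed genes with a promoter and 2.6% of all 27025 genes with one. Counted by window, it was 2.26% of all promoter windows of this length. The CCAAT box (CCAAT) was found in 60.6% of the genes and in 42.4% of expressed genes, and the CHR element (TTTGAA) in 15.2% and 13.9%. The 250 bases before the start are shown for 6 genes that the results turn on, 5′ to 3′ on the strand of the gene and with E2F-type motifs in capitals. On the log2 scale Mcm5 and Mcm6 fell most among Mcm2 to Mcm7 and Mcm7 least. Cdc6 and Pola1 were picked as examples of loading and priming, and Tk1 had the largest fall of the set in WT. Of these 6 only Tk1 has no exact match, whereas 19 of the 33 genes have none, Prim1 among them, so the 6 are not typical. A gene without an exact match may still hold a related site. Prim1, Rrm1 and Chaf1a hold TTCCCGC, which is TTTCCCGC without its first base. The E2f1 window (chr2:154569427-154569676, minus strand) lies inside the GENCODE M21 gene (chr2:154559407-154569892), so the bases before that start were not searched.
Mcm5 (chr8:75109259-75109508, plus strand): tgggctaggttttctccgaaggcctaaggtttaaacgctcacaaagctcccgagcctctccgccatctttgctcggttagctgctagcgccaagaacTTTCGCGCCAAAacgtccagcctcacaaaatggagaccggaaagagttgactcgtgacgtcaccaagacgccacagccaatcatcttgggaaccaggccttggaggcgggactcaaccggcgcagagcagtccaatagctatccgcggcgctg
Mcm6 (chr1:128359706-128359955, minus strand): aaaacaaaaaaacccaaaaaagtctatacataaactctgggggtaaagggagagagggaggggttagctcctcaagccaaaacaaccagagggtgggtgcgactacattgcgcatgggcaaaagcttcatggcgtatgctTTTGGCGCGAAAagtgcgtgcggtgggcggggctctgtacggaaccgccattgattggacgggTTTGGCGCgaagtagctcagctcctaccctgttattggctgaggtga
Mcm7 (chr5:138171884-138172133, minus strand): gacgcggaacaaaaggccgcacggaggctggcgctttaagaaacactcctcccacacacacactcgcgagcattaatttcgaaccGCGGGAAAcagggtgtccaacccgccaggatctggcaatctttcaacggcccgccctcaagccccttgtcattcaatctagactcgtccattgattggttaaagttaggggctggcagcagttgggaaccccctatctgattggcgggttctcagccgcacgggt
Cdc6 (chr11:98907901-98908150, plus strand): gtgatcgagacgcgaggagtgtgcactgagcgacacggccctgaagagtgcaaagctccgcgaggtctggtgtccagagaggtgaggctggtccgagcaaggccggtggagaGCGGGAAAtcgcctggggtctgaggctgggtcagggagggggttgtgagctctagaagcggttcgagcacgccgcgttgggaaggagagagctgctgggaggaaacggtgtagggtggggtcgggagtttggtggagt
Pola1 (chrX:93632156-93632405, minus strand): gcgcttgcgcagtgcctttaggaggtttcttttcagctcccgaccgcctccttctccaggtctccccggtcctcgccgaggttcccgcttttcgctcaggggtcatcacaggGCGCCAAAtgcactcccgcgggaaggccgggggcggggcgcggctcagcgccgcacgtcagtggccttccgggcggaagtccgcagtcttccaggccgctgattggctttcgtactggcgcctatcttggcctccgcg
Tk1 (chr11:117826015-117826264, minus strand): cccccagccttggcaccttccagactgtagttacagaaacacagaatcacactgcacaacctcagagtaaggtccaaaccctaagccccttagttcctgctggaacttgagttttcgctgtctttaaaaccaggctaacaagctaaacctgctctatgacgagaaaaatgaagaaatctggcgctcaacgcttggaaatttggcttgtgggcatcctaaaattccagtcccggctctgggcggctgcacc

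In Mcm5 the motifs TTTCGCGC and TTTGGCGC overlap on opposite strands and begin 153 and 149 bases before the start. In Mcm6 such a pair begins 110 and 106 bases before the start, and a further TTTGGCGC lies 47 bases before it. Mcm7, whose fall was among the smallest, carries TTTCCCGC 165 bases before the start shown, a TTTCGCGC shortly after that start, outside the bases printed, and none at a second RefSeq start, and Tk1 has no match in its window. The log2 difference between the stages in WT, described below, had a median of -1.24 in the 14 genes with a motif. It was -1.38 in the 19 without an exact match, and the ranges were alike (-2.41 to -0.56 and -2.79 to -0.52). This split rests on exact matches in the windows searched, so it does not part genes with E2F sites from genes without. A match is only a stretch of letters, and no binding was measured here.

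The values were FPKM, fragments scaled to transcript length and to the library total, and summed to between 437879 and 497688 per library. Read counts were not used, so the depth is unknown. Epas1 (chr17:86753700-86833410, mm10) did not show a lower level under the HIF2A cKO label. It stood at 31.9, 32.7, 43.5 and 31.2 FPKM in WT and 37.3, 35.1, 45.4 and 40.1 in HIF2A cKO at diestrus, and at 34.2, 31.2 and 33.3 against 45.7, 39.9 and 38.0 at estrus. The exact two-sided permutation test gave p = 0.257 at diestrus and p = 0.1 at estrus, the smallest that 3 against 3 allows. The log2 difference of Epas1 at diestrus was 0.18 with an adjusted p of 0.227 in limma, and 0.29 with 0.0391 without WT diestrus replicate 3. FPKM summed over a whole gene does not tell whether part of its exons is missing, so the directions below belong to the libraries labelled HIF2A cKO. The 8 uterus identity markers, Hoxa10 and Hoxa11 among them, summed to between 323 and 698 FPKM in all libraries. Rn45s, the ribosomal precursor RNA, was at 1890 FPKM in HIF2A cKO diestrus replicate 4 and 819 in HIF2A cKO estrus replicate 1, against 456 to 578 in the WT diestrus libraries, 208 to 280 in WT estrus, and 223 to 242 in the other HIF2A cKO libraries. Rn45s was thus lower at estrus in WT and, replicate 4 aside, lower in HIF2A cKO at diestrus, and its part in the results was not tested. In bulk tissue, fewer dividing cells and less RNA per dividing cell cannot be told apart.

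All 41 genes were called lower at estrus than at diestrus in both genotypes. The median log2 difference of FPKM + 1, estrus minus diestrus, was -1.33 in WT and -1.74 in HIF2A cKO, against -0.09 and -0.08 over the 14278 genes tested. Such calls (limma, Benjamini-Hochberg adjusted p under 0.05) covered 34.1% of all genes in WT and 36.5% in HIF2A cKO. On the FPKM scale the diestrus mean was between 1.27 and 11.3 times the estrus mean in WT (median 2.83) and between 1.25 and 18.8 times in HIF2A cKO (median 4.01). In WT 34 genes fell at least 2-fold and 11 at least 5-fold, and in HIF2A cKO 37 and 18. Diestrus and estrus values were fully separate for 40 of the 41 genes in each genotype, where 36.9% of all genes in WT and 37.0% in HIF2A cKO were lower without overlap. Chaf1b in WT and Gins4 in HIF2A cKO were the exceptions. The log2 scale with 1 FPKM added understates the change of low genes, and 5 of the genes had an estrus mean under 1 FPKM in WT and 7 in HIF2A cKO.

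**Figure D1:**
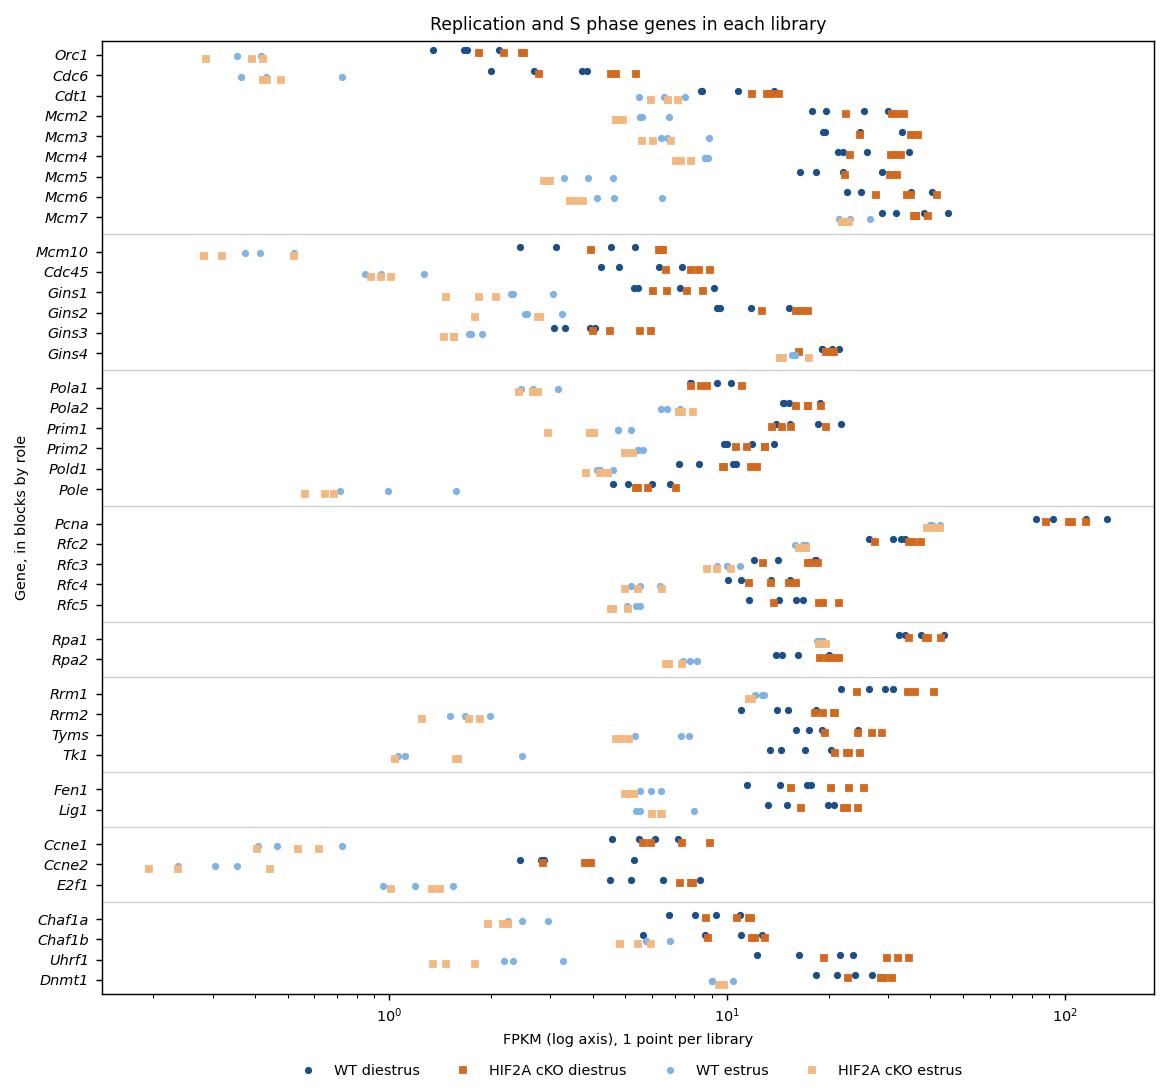
FPKM of each of the 41 genes (log axis) in each of the 14 libraries, in blocks by role, with dark points for diestrus and light points for estrus. Estrus values lie to the left of diestrus values for nearly every gene, with group means from 0.298 to 41.0 FPKM in WT estrus and from 1.71 to 106 in WT diestrus.

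All 9 origin licensing genes fell, with a median log2 difference of -1.45 in WT and -1.86 in HIF2A cKO. Mcm6 (chr1:128331590-128359664), an MCM ring subunit, was at 35.0, 40.4, 22.6 and 25.0 FPKM in WT diestrus and 6.41, 4.13 and 4.64 in WT estrus. In HIF2A cKO it went from 34.2, 35.1, 27.7 and 42.0 to 3.54, 3.44 and 3.74. The stages were far apart in both genotypes, and the log2 differences were -2.37 ± 0.192 (SE, adjusted p = 1.2e-06) and -2.95 ± 0.192 (adjusted p = 1.32e-07). Mcm5 (chr8:75109569-75128439), another subunit of the ring, was at 22.0, 28.8, 16.5 and 18.4 FPKM in WT diestrus against 4.59, 3.29 and 3.87 in WT estrus. In HIF2A cKO Mcm5 was at 30.6, 31.9, 22.4 and 30.3 against 2.98, 2.87 and 3.00. Its log2 differences were -2.17 ± 0.167 and -2.90 ± 0.167, and the 3 HIF2A cKO estrus libraries were nearly equal. Mcm2, which also binds histones, fell from a mean of 23.2 ± 5.53 (SD, n = 4) to 5.95 ± 0.68 FPKM (n = 3) in WT and from 29.7 ± 4.90 to 4.80 ± 0.105 in HIF2A cKO. Mcm3 and Mcm4 fell 3.31-fold and 2.99-fold in WT. Among the loaders, Cdc6 fell 6.05-fold in WT and 9.77-fold in HIF2A cKO, and Orc1, the ATPase subunit of the origin recognition complex, 4.30-fold and 6.13-fold. Cdt1, the loader that is degraded once S phase begins, fell only 1.59-fold and 1.99-fold.

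Mcm7 fell least of the ring subunits. It stood at 38.4, 45.0, 28.7 and 31.6 FPKM in WT diestrus and at 26.5, 23.1 and 21.5 in WT estrus, a log2 difference of -0.56 ± 0.123 (limma adjusted p = 0.00186). In HIF2A cKO it went from 36.2, 36.2, 35.9 and 39.3 to 22.0, 21.9 and 22.9. The stages did not overlap, but the fall was 1.51-fold and 1.66-fold where the other subunits fell between 2.99-fold and 9.77-fold. Since FPKM is scaled to length, subunits can be compared: Mcm7 was 1.36 to 1.60 times the median of Mcm2 to Mcm6 in the WT diestrus libraries and 3.89 to 4.13 times in the WT estrus libraries. In HIF2A cKO the ratio went from between 1.08 and 1.55 to between 4.57 and 4.68. This comparison was chosen after the values were seen. Mcm7 (chr5:138164583-138172422, GENCODE M21) holds Mir25, Mir93 and Mir106b, and 12.6% of its exonic bases are shared with other gene models, among them Cops6 and Ap4m1 on the opposite strand. Whether the counting used strand is not given in the sources used here, and reads of overlapping genes cannot be told apart.

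**Figure D2:**
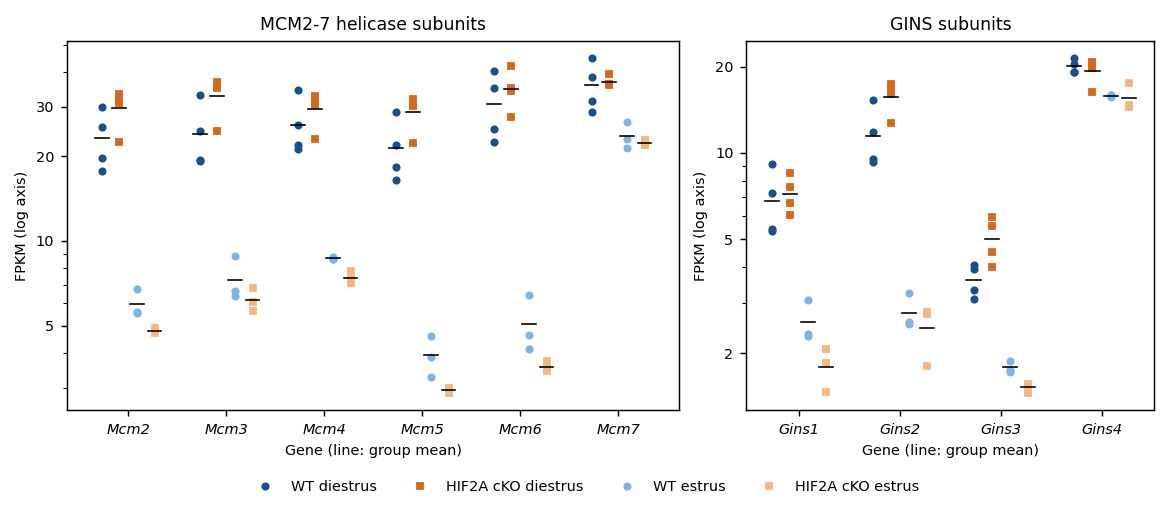
FPKM (log axis) of the MCM2-7 subunits and of the GINS subunits, 1 point per library, with a line at each group mean. Mcm7 and Gins4 change least (means of 23.7 and 15.8 FPKM in WT estrus), while the other subunits of each complex lie below 10 FPKM at estrus.

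The 6 helicase activation genes fell with medians of -1.40 in WT and -1.87 in HIF2A cKO. Mcm10, which helps the helicase to fire, was at 5.33, 4.55, 2.44 and 3.12 FPKM in WT diestrus and 0.373, 0.413 and 0.524 in WT estrus, an 8.84-fold fall. In HIF2A cKO it fell 15.4-fold, from 6.29, 6.43, 3.96 and 6.45 to 0.319, 0.282 and 0.523. All 6 estrus libraries were thus below 1 FPKM for Mcm10. Gins2, a GINS subunit, fell from 11.5 ± 2.80 to 2.77 ± 0.403 FPKM in WT and from 15.7 ± 2.07 to 2.45 ± 0.558 in HIF2A cKO, with log2 differences of -1.71 ± 0.167 and -2.28 ± 0.167. Cdc45, the helicase cofactor, fell 5.54-fold and 8.33-fold. Gins4 (chr8:23226616-23237659), by contrast, was at 21.5, 20.4, 19.1 and 19.1 FPKM in WT diestrus and 15.9, 15.9 and 15.6 in WT estrus, and at 20.8, 19.7, 16.3 and 20.5 against 14.4, 14.7 and 17.5 in HIF2A cKO. Estrus replicate 4 of HIF2A cKO was above diestrus replicate 3. The log2 differences of Gins4 were -0.32 ± 0.0886 (limma adjusted p = 0.00779) and -0.30 ± 0.0886 (0.0104), and the latter did not pass without HIF2A cKO estrus replicate 1 (-0.25, 0.0537). Gins4 was 2.23 to 3.60 times the median of Gins1 to Gins3 in WT diestrus and 6.10 to 6.96 times in WT estrus, and 2.41 to 3.12 against 8.13 to 9.31 times in HIF2A cKO, also a comparison chosen after the values were seen. Gins4 shares no exonic bases with another gene model, whereas Gins2 shares 67.3% with Gse1.

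Polymerase and primase genes fell with medians of -1.25 and -1.33. Pole, the catalytic subunit of the leading-strand polymerase, was at 5.99, 6.80, 5.08 and 4.59 FPKM in WT diestrus and 1.58, 0.717 and 0.993 in WT estrus, and at 5.44, 5.36, 5.82 and 7.05 against 0.563, 0.644 and 0.685 in HIF2A cKO. That is a 5.12-fold and a 9.38-fold fall, the largest of the 6 genes in each genotype. Prim1, the primase subunit that makes the RNA primer, fell 3.55-fold and 4.36-fold, and Pola1, the catalytic subunit of polymerase alpha, 3.20-fold and 3.44-fold. Pola2, Prim2 and Pold1 fell between 2.06-fold and 2.35-fold in WT.

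The sliding clamp Pcna was the most abundant of the 41 genes in every group mean. It was at 116, 133, 82.5 and 92.4 FPKM in WT diestrus and 42.7, 40.0 and 40.4 in WT estrus, and at 103, 105, 88.2 and 116 against 39.0, 40.9 and 42.8 in HIF2A cKO. The log2 differences were -1.33 ± 0.139 (limma adjusted p = 9.16e-06) and -1.31 ± 0.139 (5.77e-06), so that Pcna was still at about 41 FPKM at estrus, when Mcm5 was below 5. Of the clamp loader genes, Rfc5 fell 2.77-fold and 3.87-fold, and Rfc3, with a log2 difference of -0.57 ± 0.148 in WT, fell 1.56-fold and 1.76-fold. Rpa1 and Rpa2, subunits of the single-strand binding protein RPA, fell 1.96-fold and 2.08-fold in WT and 2.04-fold and 2.93-fold in HIF2A cKO.

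Genes of nucleotide synthesis had the lowest medians of the 9 role groups, -1.94 in WT and -2.56 in HIF2A cKO. Tk1 (chr11:117815526-117826092), the thymidine salvage kinase, was at 17.0, 20.3, 14.5 and 13.4 FPKM in WT diestrus and 2.48, 1.11 and 1.06 in WT estrus, and at 22.7, 24.8, 20.9 and 22.9 against 1.58, 1.04 and 1.60 in HIF2A cKO. The log2 differences were -2.79 ± 0.18 (limma adjusted p = 1.93e-07) and -3.31 ± 0.18 (2.94e-08). Tk1 had the largest log2 fall of the 41 genes in WT, and WT estrus replicate 1 was above the other estrus libraries. Rrm2, the S phase subunit of ribonucleotide reductase, fell from 14.1, 18.3, 15.2 and 11.0 to 1.99, 1.51 and 1.68 FPKM in WT and from 18.2, 20.8, 19.3 and 20.9 to 1.86, 1.25 and 1.72 in HIF2A cKO. Its fold was 8.50 and 12.3, against 2.16 and 2.89 for Rrm1, the large subunit of the same enzyme. Tyms, thymidylate synthase, fell 2.83-fold in WT and 5.08-fold in HIF2A cKO.

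Lig1, the ligase of Okazaki fragments, fell 2.75-fold and 3.43-fold, and Fen1, the flap nuclease, 2.55-fold and 4.07-fold, although 84.2% of the exonic bases of Fen1 are shared with Tmem258 and Gm10143. Ccne1 and Ccne2, the cyclins E, had among the largest folds. Ccne1 was at 6.14, 7.16, 4.56 and 5.49 FPKM in WT diestrus and 0.727, 0.410 and 0.465 in WT estrus (10.9-fold), and fell 13.4-fold in HIF2A cKO. Ccne2 fell 11.3-fold and 12.5-fold, to 0.298 ± 0.0587 and 0.292 ± 0.133 FPKM, where the values are least precise. E2f1, the transcription factor of S phase entry, fell 4.98-fold and 6.15-fold.

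Uhrf1 (chr17:56303321-56323486), which recruits Dnmt1 to newly copied DNA, was at 21.6, 23.6, 12.3 and 16.3 FPKM in WT diestrus and 3.27, 2.19 and 2.33 in WT estrus. In HIF2A cKO it was at 32.0, 34.6, 19.4 and 29.8 against 1.47, 1.35 and 1.80, the largest fall in that genotype on both scales (18.8-fold, log2 -3.53 ± 0.22, limma adjusted p = 8.53e-08). Dnmt1, the maintenance methyltransferase, fell 2.38-fold and 2.89-fold. Chaf1a, the large subunit of chromatin assembly factor 1, fell 3.41-fold and 5.03-fold, with 52.5% of its exonic bases shared with Ubxn6. Chaf1b, the middle subunit, was at 12.7, 11.0, 5.65 and 8.61 FPKM in WT diestrus and 6.80, 5.74 and 5.75 in WT estrus, so that diestrus replicate 3 lay below every estrus library. Its log2 difference in WT was -0.52 ± 0.203 with a limma adjusted p of 0.044, and the call did not hold without any library other than WT diestrus replicate 3 and HIF2A cKO diestrus replicates 3 and 4 (adjusted p 0.0528 to 0.118). In HIF2A cKO Chaf1b fell 2.11-fold (adjusted p = 0.00134).

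**Figure D3:**
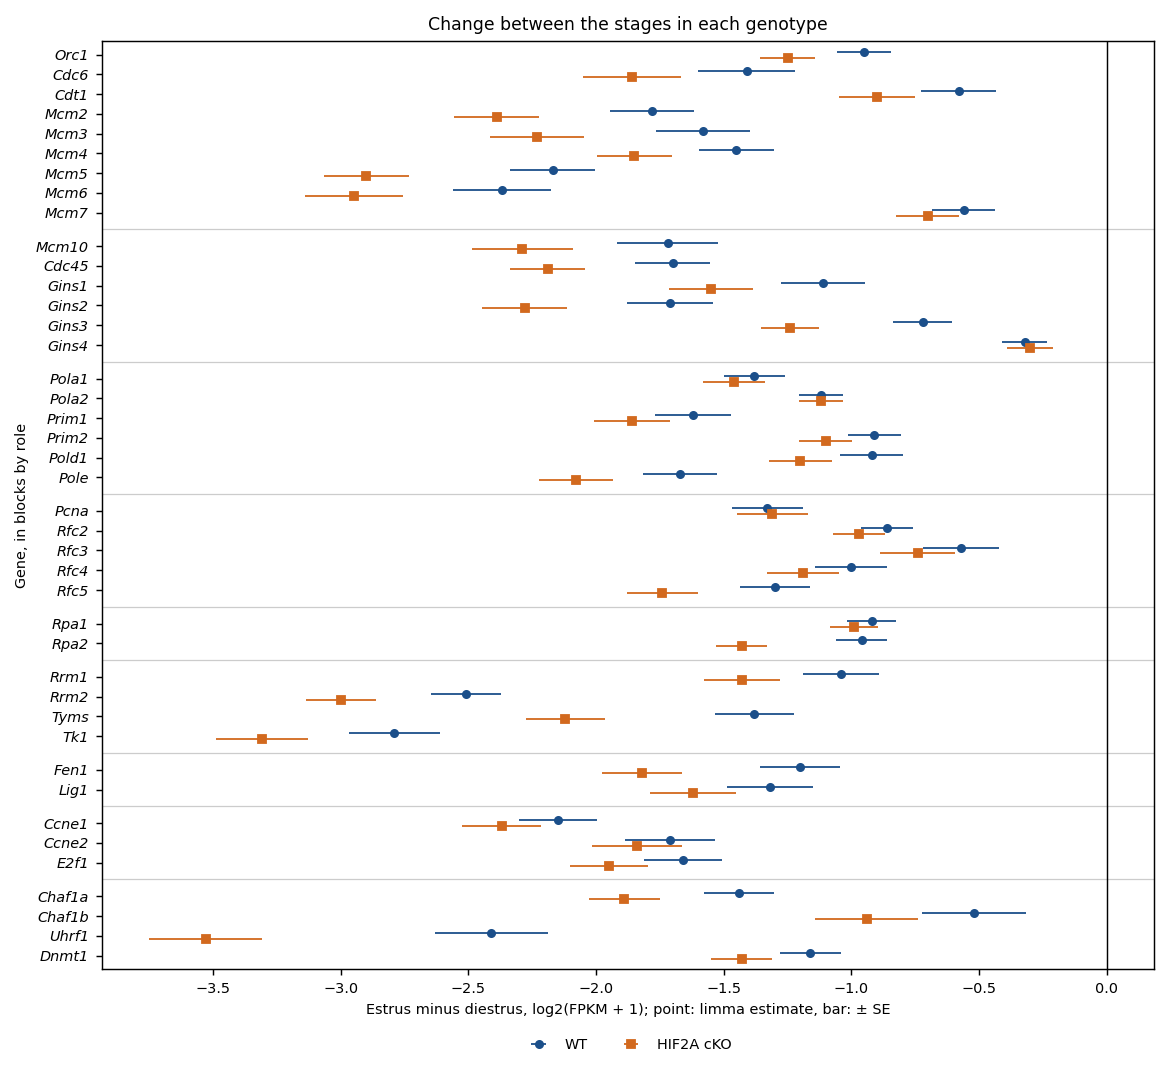
Estrus minus diestrus difference of log2(FPKM + 1) for each gene in WT and in HIF2A cKO, as limma estimate ± SE. Every estimate lies below 0, from -2.79 (Tk1) to -0.32 (Gins4) in WT and from -3.53 (Uhrf1) to -0.30 (Gins4) in HIF2A cKO.

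Other genes of the pathway, listed by function, moved the same way for the most part, where 34.1% of all genes fell and 23% rose in WT, and 36.5% fell and 25.5% rose in HIF2A cKO. Of 35 further replication factors, 29 fell and 1 rose in WT and 31 fell and 1 rose in HIF2A cKO, with medians of -0.79 and -1.02. The largest falls were in Tipin and Clspn, which protect the fork and relay checkpoint signals (-1.68 and -1.63 in WT, -1.83 and -2.09 in HIF2A cKO). Pold4, the small subunit of polymerase delta, was the gene that rose (0.56 ± 0.171, limma adjusted p = 0.0133, and 0.88 ± 0.171, adjusted p = 0.00063). Of 21 genes of S phase metabolism and chromatin, 17 fell in each genotype, 2 rose in WT and 3 in HIF2A cKO. Asf1b, a histone chaperone, fell by 1.96 on the log2 scale in WT, and Hells, a chromatin remodeller, fell by 2.48 in HIF2A cKO. Tk2, the mitochondrial thymidine kinase, and Samhd1, which degrades deoxynucleotides, rose by 0.33 and 0.34 in WT and by 0.43 and 0.49 in HIF2A cKO. Among 21 G1/S regulators, 14 fell and 1 rose in WT and 16 fell and 2 rose in HIF2A cKO, with medians of -0.35 and -0.77. E2f8, an E2F repressor, fell by 1.49 and 2.32, Ccnd2 by 1.42 in WT and Ccnd1 by 1.97 in HIF2A cKO, while Cdk6 rose by 0.64 and 0.53.

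Cell type markers also moved with the stage, read against the same shares of all genes. Epithelial markers rose for 7 of 8 genes in WT and 6 in HIF2A cKO, Foxa2, a gland marker, fell in both (-1.04 and -0.94), and their summed level went from 352 to 568 FPKM at diestrus to 914 to 1110 at estrus in WT and from 416 to 880 to 1160 to 1290 in HIF2A cKO. Stromal markers fell for 7 of 8 genes in WT and 6 in HIF2A cKO (2650 to 3420 against 1930 to 2140 FPKM, and 2930 to 3600 against 2280 to 2370). Macrophage markers rose for 5 of 6 genes tested in each genotype (360 to 546 against 679 to 766, and 330 to 364 against 705 to 900 FPKM). No lymphocyte marker passed the test of the 4 that could be tested, and the B cell marker Ms4a1 stood at no more than 0.141 FPKM. Endothelial markers fell for 3 of 7 genes in WT and 2 in HIF2A cKO, with 0 rising. Of 8 smooth muscle markers 3 fell in each genotype, and 1 rose in WT and 2 in HIF2A cKO. Of 8 uterus identity markers 4 fell and 0 rose in WT, and 5 fell and 1 rose in HIF2A cKO. Of the markers of ovary or oviduct tissue, 4 could be tested: Foxl2 fell in both genotypes (-0.55 and -1.37), Pax8 rose in WT (0.54) and Inha in HIF2A cKO (0.46). Their sums were 37.6 to 47.5 FPKM at diestrus and 35.5 to 41.5 at estrus in WT, and 48.4 to 59.3 and 34.2 to 38.2 in HIF2A cKO, while the granulosa marker Cyp19a1 was listed at 0 in all estrus libraries and reached at most 0.032 FPKM at diestrus. The part of these shifts in the fall of the replication genes was not tested.

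The 41 genes varied together within groups too. As a mean deviation from each gene's own average on the log2 scale, the WT diestrus libraries stood at 0.66, 0.84, 0.28 and 0.38 and the HIF2A cKO diestrus libraries at 0.81, 0.88, 0.56 and 0.93. The estrus libraries stood at -0.71, -0.90 and -0.86 in WT and at -0.95, -0.98 and -0.91 in HIF2A cKO. Their spread was narrower on this scale, which compresses low values, and the estrus groups hold 3 libraries against 4. In WT diestrus, replicates 3 and 4 were the 2 lowest for 39 genes, and in HIF2A cKO diestrus replicate 3 was the lowest for 36. The diestrus libraries numbered 3 also had the lowest epithelial marker sums of their groups (352 and 416 FPKM) and the highest endothelial (297 and 251) and lymphocyte sums (47.5 and 33.9), whose part was not tested. As a description over the 14 libraries, the genes outside all lists whose log2 values followed the mean profile most closely were 2810417H13Rik (r = 0.9949), named Pclaf in RefSeq and encoding a partner of PCNA, Mettl1 (0.9946), Atad2 (0.9938), D17H6S56E-5 (0.9931) and Mrpl42 (0.9929). They were taken from 10314 genes with a mean of at least 5 FPKM. With the stages so far apart, such an r mostly reads the difference between stages.

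**Figure D4:**
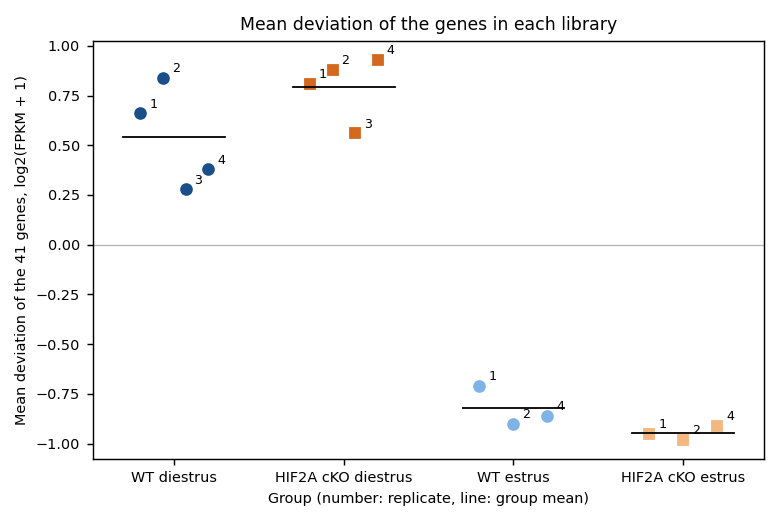
Mean deviation of the 41 genes from their average log2(FPKM + 1) in each library, with the replicate number beside each point and a line at the group mean. Diestrus libraries lie between 0.28 and 0.93 and estrus libraries between -0.98 and -0.71, and both diestrus libraries numbered 3 are the lowest of their group.

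At diestrus the share of the genes called higher in HIF2A cKO was close to that of all genes, and the differences were small. The median log2 difference was 0.28 (all genes 0.02), and 38 of the 41 estimates were above 0, as were 7450 of the 14278 genes tested. The 41 genes vary together, so their signs are not independent. In limma 6 genes (14.6%) were called higher and 0 lower, where 13.8% of all genes were called higher and 10% lower, and 20 genes were at an unadjusted p under 0.05, as were 39.2% of all genes. Uhrf1 differed most, at 0.63 ± 0.204 (1.57-fold, adjusted p = 0.0408). The others were Cdc45 (0.44 ± 0.137, adjusted p = 0.0375), Fen1 (0.44 ± 0.145, 0.0433), Rrm2 (0.43 ± 0.128, 0.0311), Gins3 (0.38 ± 0.106, 0.0242) and Rpa2 (0.31 ± 0.0925, 0.029), and for all 6 the diestrus values overlapped between genotypes. Cdc45 was at 6.28, 7.35, 4.24 and 4.78 FPKM in WT and 8.27, 8.89, 6.60 and 7.84 in HIF2A cKO, and Gins3 at 3.92, 4.07, 3.08 and 3.31 against 4.51, 5.54, 4.00 and 5.95. In both genes the lowest HIF2A cKO library, replicate 3, lay below the highest WT library, replicate 2. Of the 41 genes only Tk1, with 20.9 to 24.8 FPKM against 13.4 to 20.3, did not overlap, where 8.80% of all genes were higher without overlap, and its adjusted p was 0.0556. Polymerase and clamp genes had medians of 0.08 and 0.12, and Pcna differed by -0.02 ± 0.129.

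Residuals of same-numbered diestrus libraries correlated at 0.321, 0.115, 0.622 and 0.217, so the comparison was also made within numbers. Differently numbered libraries were not correlated, so these values have no reference. Residuals are centred per group, so a deviation shared by the libraries numbered 3 can also raise the other values. Pairing of the numbers 1, 2 and 4 is therefore not shown. With the replicate number as a block in all 14 libraries, 20 genes were called higher in limma (18.8% of all genes). Uhrf1 (0.63 ± 0.118, adjusted p = 0.00442), Fen1 (0.44 ± 0.0862, 0.00507) and Cdc45 (0.44 ± 0.0907, 0.00668) came first among them. Residuals of same-numbered estrus libraries correlated at only 0.0805, 0.0958 and -0.0475, so the block does not pair those libraries. The pairing at diestrus was assumed from these same data, so the p-values with the block may be too small. In the diestrus libraries alone with the block, a fit added after the data were seen, 8 were called (9.05% of all genes): Cdc45, Cdc6, Dnmt1, Fen1, Mcm10, Mcm5, Tk1 and Uhrf1. Within the 4 pairs the median differences were 0.18, 0.09, 0.31 and 0.57, and 30, 24, 39 and 41 genes were higher in HIF2A cKO. In all 4 pairs 22 genes were higher and 0 lower, where 24.1% of all genes were higher in all pairs and 19.9% lower. The pair numbered 4, which holds the HIF2A cKO library with the most Rn45s (1890 FPKM) and with fat markers at 149 FPKM, differed most. In that library Mir6236 alone held 7.07% of the FPKM total, where the top gene of every other library held 1.05% to 2.02%. The part of this in the FPKM values was not tested. The count in the fit without the block moved strongly with single libraries, and the share of all genes called higher is given beside each. It was 21 without WT diestrus replicate 2 (16.7% of all genes) or HIF2A cKO diestrus replicate 3 (20%), and 2 without HIF2A cKO diestrus replicate 4 (15.8%). It was 1 without WT diestrus replicate 3 (10.3%) or HIF2A cKO diestrus replicate 1 (7.33%), and 0 without WT diestrus replicate 4 (9.1%) or HIF2A cKO diestrus replicate 2 (6.18%). Leaving out an estrus library gave 3 without WT replicate 2 (11.9%) or any HIF2A cKO replicate (11.9% to 12.1%) and 4 without WT replicate 4 (11.9%). Without both libraries with the most Rn45s it was 0 (13.8%). A fit of the 8 diestrus libraries with no block called 0 genes (1.89% of all genes), and library weights called 25 (30.3%). Among markers at diestrus, 3 of 8 stromal genes were lower and 2 higher in HIF2A cKO, and 1 of 8 epithelial genes was higher and 1 lower. Their sums were 2650 to 3420 in WT and 2930 to 3600 FPKM in HIF2A cKO for stroma, and 352 to 568 and 416 to 880 for epithelium. Of 8 uterus identity markers 4 were lower and 1 higher, with sums of 566 to 698 FPKM in WT and 420 to 631 in HIF2A cKO. No macrophage marker of 6 was called in limma, though 5 were at an unadjusted p under 0.05, and the sums were 360 to 546 and 330 to 364 FPKM. Of the ovary or oviduct markers Foxl2 was higher (0.71) and Inha lower (-0.45). Of 7 endothelial markers 1 was higher, and 0 of 8 smooth muscle and 0 of 4 lymphocyte markers were called. The part of these marker differences was not tested.

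**Figure D5:**
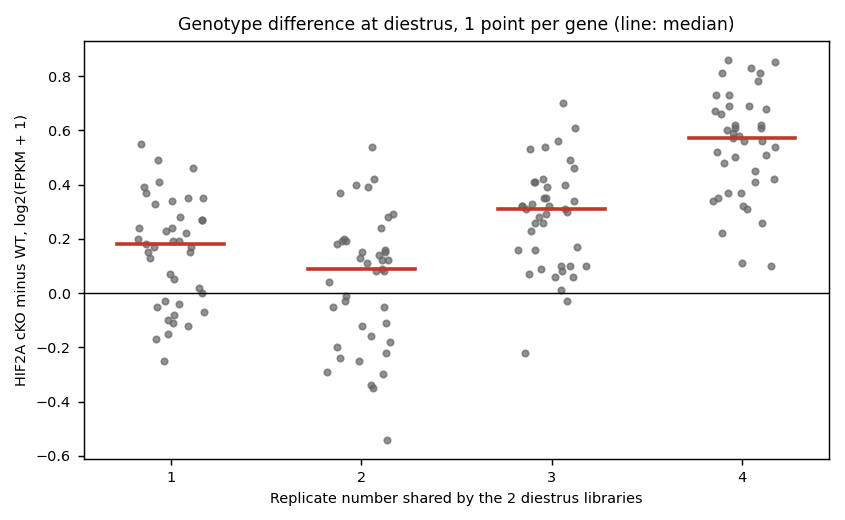
HIF2A cKO minus WT difference of log2(FPKM + 1) at diestrus for each of the 41 genes, within each pair of libraries that share a replicate number, with a line at the median. The medians are 0.18, 0.09, 0.31 and 0.57, and all 41 genes lie above 0 in the pair numbered 4 only.

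At estrus 0 of the 41 genes were called in limma in either direction (0.105% of all genes were called), and 3 were at an unadjusted p under 0.05, as were 7.37% of all genes. The median difference, HIF2A cKO minus WT, was -0.08, and 34 estimates were below 0, as were 6875 of the 14278 genes tested. The lowest was Uhrf1 at -0.49 ± 0.235 (limma adjusted p = 0.696). The values of 14 genes were lower in HIF2A cKO without overlap, where 12.0% of all genes were. Mcm2, Mcm4, Mcm5, Mcm6 and Uhrf1 were among these 14. Pcna, in contrast, was at 41.0 ± 1.48 FPKM in WT and 40.9 ± 1.94 in HIF2A cKO.

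The difference between the cycle changes of the genotypes was tested as an interaction. No gene of the 41 passed in limma (0.035% of all genes did, 0.021% with a larger fall in HIF2A cKO), and 13 were at an unadjusted p under 0.05, as were 17.6% of all genes. The estimates had a median of -0.40 (all genes -0.01) and 39 were below 0, which means a larger fall in HIF2A cKO. Over all 14278 genes tested 7400 were below 0. Of the 41 genes 38 had the larger fold in HIF2A cKO. Since the 41 genes vary together, their signs are not independent. Uhrf1 had the largest difference, -1.13 ± 0.311 (adjusted p = 0.144), followed by Tyms (-0.75 ± 0.218, 0.149) and Mcm5 (-0.74 ± 0.237, 0.17). The count of genes with a larger fall was 8 without HIF2A cKO diestrus replicate 3 (4.57% of all genes) and 3 without WT diestrus replicate 2 (1.1%). It was 21 with library weights (20.2% of all genes). It was 2 with the replicate block (1.61%), Uhrf1 among them (adjusted p = 0.0223), though the numbers did not pair the estrus libraries.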

How the data were processed

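Uterine RNA was column-purified with DNase and made into Illumina TruSeq libraries, per the labels' protocols. The authors deposited FPKM values per gene symbol, with TopHat2 2.0.4, Cufflinks 2.0.2 and the build mm10 named in the submitters' processing notes without their roles. Annotation, strand setting and between-library scaling are not given in the sources used. FPKM divides by transcript length and total, so abundant genes lower the values of all others. The low values gave a clear step between libraries in 16 of 91 pairs, so reads were not recovered.

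Values were analysed as log2(FPKM + 1), with a pseudocount of 1, in limma 3.58.1 (R 4.3.3). A filter of 1 FPKM or more in 3 or more libraries kept 14278 genes, with all 41 among them. Left out were 11 genes, none of the 41, that were listed at 0 throughout a group while another group averaged 50 FPKM or more, since such a 0 can be a failed estimate. A joint model of all 14 libraries held the group means, with a mean-variance trend and the Benjamini-Hochberg adjustment over all genes at 0.05, two-sided. The script was tested on simulated data. Genes, lists and settings were chosen with earlier results of these data known. Named genes were Pcna, Mcm2, Epas1, the 2 largest changes per role in WT, exceptions in direction or overlap, calls between genotypes, the 2 largest changes in each direction per other list and the 5 most similar genes; others are examples chosen after their values were seen, and some results are not reported here. Coordinates are from GENCODE M21.

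Alternatives were another pseudocount, other filters and scalings, eBayes without trend, library weights, fits of the libraries compared alone, the replicate block, the genes listed at 0 kept, each library left out, a narrower E2F-type motif, and, added after the data were seen, leaving out both diestrus libraries numbered 3 or both libraries with the most Rn45s, and the block in the diestrus libraries alone. Residuals of same-numbered libraries correlated at 0.321, 0.115, 0.622 and 0.217 at diestrus, all above 0.1, and at 0.0805, 0.0958 and -0.0475 at estrus. The labels do not say what a number marks, and the pairing at diestrus was assumed from these correlations. Those between differently numbered libraries were not computed, so there is no reference for them.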

Additional observations from a re-analysis of the deposited data

Results flagged for a closer look

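In groups of 4 libraries, 7 of 82 sets of values held a library far from the other 3 by Dixon's 95% criterion. Chance meets it in about 1 of 20 independent sets. These sets are not independent, since the genes vary together in the same libraries, so the count cannot be read against that rate. HIF2A cKO diestrus replicate 3 was low for Mcm3 (24.7 FPKM, the others 35.0 to 36.7), Mcm5 (22.4, the others 30.3 to 31.9) and Mcm10 (3.96, the others 6.29 to 6.45). HIF2A cKO diestrus replicate 4 was high for Mcm7 (39.3 FPKM, the others 35.9 to 36.2). WT diestrus replicate 2 was high for Pola2 (18.8 FPKM, the others 14.7 to 15.3) and Ccne2 (5.31, the others 2.44 to 2.88), and HIF2A cKO diestrus replicate 1 was low for Ccne2 (2.86, the others 3.81 to 3.96).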

How the results depend on the processing

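The fall from diestrus to estrus held in direction for every gene tested under every alternative run (37 genes with the filter of 5 FPKM). Of 1062 values per genotype, 16 lost the call in WT, all of Chaf1b (0.0727 to 0.0926 under no filter, other scalings or a fit of WT alone), and 3 in HIF2A cKO, all of Gins4 (quantile normalization 0.0547, without both Rn45s-rich libraries 0.101). Leaving out 1 library gave 40 to 41 lower calls in each genotype.

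The count of genes higher in HIF2A cKO at diestrus (6) was 2 with no filter (7.39% of all genes), 0 with the diestrus libraries alone, 25 with library weights (30.3% of all genes), 16 without both diestrus libraries numbered 3 (18%), 0 without both Rn45s-rich libraries, and 0 to 21 with 1 library left out. The replicate block gave 20, and 8 in the diestrus libraries alone; at estrus and across stages the numbers did not pair the libraries. The lower count at estrus (0) was 2 with library weights (4.03% of all genes). The interaction count (0) was 21 with library weights, 2 with the replicate block, 8 without both diestrus libraries numbered 3 (4.45%) and 0 to 8 with 1 library left out; it cannot be had from the libraries of a single stage or genotype. The block changed no other count. The cause of these shifts was not tested. Epas1 at diestrus (0.18) was 0.22 (limma adjusted p = 0.0427) without both libraries numbered 3 and 0.12 to 0.29 with 1 library left out. At estrus Epas1 did not pass in the main fit (0.31, limma adjusted p = 0.605) but was 0.36 (0.013) with library weights. With 1 library left out it was 0.24 to 0.37 at estrus, with adjusted p of 0.349 or more. The narrower E2F-type motif (TTTCCCGC or TTTGGCGC) was in 11 of 33 genes (33.3%, against 3.28% of expressed genes). The planned protein motifs were not run. No counting error is available for FPKM, and genes under 1 FPKM at estrus are the least precise.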
